A study of Mus musculus with 48 samples.

Results

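Casp6 and 7 other genes of programmed cell death were followed through the day in mouse liver with and without the clock gene Bmal1. They are the caspases Casp6, Casp8 and Casp9 and the BCL2 family genes Bcl2l1, Mcl1, Bax, Bcl2l11 and Bid, and they make up 8 of the 23732 genes in the deposited count table. The members were picked by symbol, Casp6 because its level cycles in control mice and is flat in knockout mice, and the others as a contrast to it. Every value on the rhythm of Casp6 is therefore a description and carries no test, while its mean over the day and all values of the other 7 genes were tested.

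Liver mRNA came from 48 male C57BL/6 mice aged 4 to 6 months. All mice were homozygous for the floxed allele (Bmal1 f/f). The knockout (KO) mice also carried EsrCre, a tamoxifen-inducible Cre active throughout the body, and their Cre-negative littermates are labelled WT. Both genotypes received tamoxifen by gavage, 5 mg a day for 5 days, and 7 days after the last dose they spent 36 h in constant darkness. The mice were killed in darkness at 6 times 4 h apart, with 4 mice in each of the 12 groups of genotype and time. By the labels, 38 mice were housed in groups and 10 individually. Hours are the labels' zeitgeber times (ZT). Since Cre was present in each KO mouse and in no WT mouse, Cre and the loss of Bmal1 cannot be told apart as sources of a difference. KO mice weighed 23 to 31 g and WT mice 27 to 34 g, so genotype and body weight cannot be fully told apart either. Nothing but the separate mice defines the replicates, so p values measure the spread between mice.

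Apoptosis is carried out by caspases, proteases made as inactive precursors. Initiator caspases are activated in protein complexes, caspase-8 below death receptors and caspase-9 in the apoptosome, and cut the executioners, the class to which caspase-6 is usually assigned. The BCL2 family decides whether mitochondria release cytochrome c, which builds the apoptosome: Bcl-xL (from Bcl2l1) and MCL1 restrain the pore former BAX, and the BH3-only proteins BIM (from Bcl2l11) and BID release that restraint. Bmal1, listed as Arntl in the gene table, encodes the partner of CLOCK in the activator that binds E-box DNA motifs in the liver and drives the Rev-erb, Per and D-box factor loops.

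Levels below are CPM, counts relative to the library total, after scaling by trimmed means (TMM). Total counts lay between 33562272 and 34035644 per library. Arntl over the whole gene reached 43.9 ± 3.67 CPM (SD, n = 4) in WT at ZT20 and 1.35 ± 0.349 at ZT8, and KO mice lay between 4.60 and 25.6 CPM with no regular course. The gene count does not separate the floxed part from the rest, so reads of a deleted gene are counted too. Dbp, a clock output gene, spanned 0.522 to 149.9 CPM over WT mice and 2.46 to 61.8 over KO mice. Markers of hepatocytes were abundant in every library, with a summed level of 10023 to 21494 CPM in WT and 11264 to 19972 in KO, over 4 genes of which 1, Apoa1, differed on average. Summed Kupffer cell markers lay at 577 to 1138 CPM in WT and 454 to 1372 in KO, with none of 5 called. Calls were made for 1 of 5 endothelial markers tested (Kdr) and 1 of 5 T and NK cell markers (Ncr1). They were made for 0 of 5 stellate, 0 of 4 cholangiocyte, 0 of 4 B cell, 0 of 3 neutrophil and 0 of 1 pancreas markers tested. Over all genes the share was 8.86%. Some types had low levels, with WT medians of the summed markers at 8.02 CPM for B cells and 3.90 for T and NK cells. Fewer cells of a type and less RNA per cell cannot be told apart in such bulk samples, and the part of cell composition in the results was not tested.

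Casp6 (ENSMUSG00000027997, mm9 chromosome 3, 129604343 to 129617021) encodes caspase-6, which cuts nuclear lamins among other targets. Its gene model overlaps no other in the table. In WT the 4 mice stood at 17.9, 25.9, 21.9 and 34.5 CPM at ZT0, at 28.4, 26.9, 34.9 and 41.3 at ZT4, and at 31.2, 32.0, 30.1 and 34.4 at ZT8. They stood at 17.6, 15.3, 16.8 and 13.2 at ZT12, at 11.9, 11.7, 9.52 and 9.73 at ZT16, and at 14.2, 12.6, 11.7 and 20.3 at ZT20. The high times were thus ZT4 and ZT8 and the low time ZT16, with no overlap between the mice of the high and the low times. The group means ran from 32.9 ± 6.59 CPM (SD, n = 4) at ZT4 to 10.7 ± 1.24 at ZT16, a 3.07-fold range. Ordered by mean, ZT4, ZT8 and ZT0 came first, then ZT12, ZT20 and ZT16, and of neighbours in that order only ZT0 and ZT12 had mice that did not overlap.

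In KO the mice stood at 17.4, 17.1, 17.99 and 17.2 CPM at ZT0, at 17.5, 17.3, 17.1 and 14.6 at ZT4, and at 17.3, 16.7, 16.2 and 18.96 at ZT8. They stood at 15.1, 22.02, 21.04 and 15.1 at ZT12, at 20.8, 19.7, 16.5 and 21.1 at ZT16, and at 16.03, 17.4, 17.2 and 24.1 at ZT20. No time stood apart: means ran from 16.6 ± 1.34 CPM (SD, n = 4) at ZT4 to 19.5 ± 2.12 at ZT16, a 1.17-fold range, and all neighbours in the order overlapped. The KO level lay between the high and the low level of WT. Over all times the mean was 21.8 ± 9.64 CPM (SD, n = 24) in WT and 17.98 ± 2.36 in KO, and the SD of log2 CPM within groups was 0.27 in WT and 0.19 in KO.

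**Figure D1:**
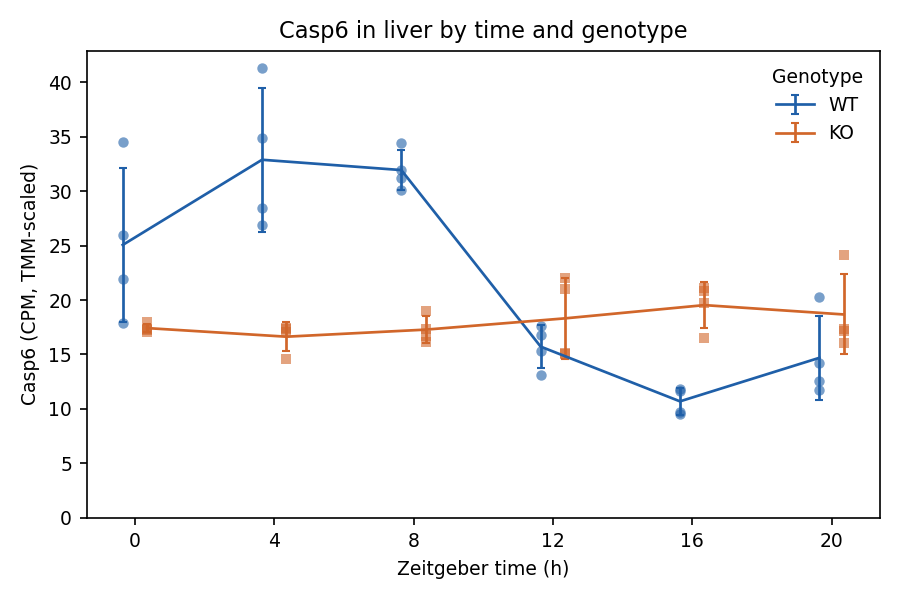
Casp6 level (CPM, TMM-scaled, linear axis from 0) against zeitgeber time in hours for WT (circles) and KO (squares), points for single mice, lines through the means of 4 mice, and bars of 1 SD. WT means fall from 32.9 at ZT4 to 10.7 at ZT16, while KO means stay between 16.6 and 19.5.

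A 24 h cosine wave fitted per genotype gave Casp6 an amplitude, the distance from mean to peak on the log2 scale, of 0.85 ± 0.07 (SE) in WT, which is a 3.25-fold rise from trough to peak, with the peak at ZT4.59. In KO the amplitude was 0.11 ± 0.06, or 1.16-fold, with a fitted peak at ZT16.4. Ranked by amplitude among the 9880 genes with at least 5 CPM, Casp6 was number 131 in WT and number 4056 in KO. The difference KO minus WT was -0.52 ± 0.16 (log2, SE) at ZT0, -0.98 ± 0.16 at ZT4 and -0.89 ± 0.16 at ZT8, and 0.22 ± 0.16, 0.87 ± 0.16 and 0.35 ± 0.16 at ZT12, ZT16 and ZT20. WT mice lay wholly above KO mice at ZT4 and ZT8 and wholly below them at ZT16. At ZT0 the value moved to -0.33 without WT mouse 48, the highest of its group, and at ZT20 it was 0.20 without KO mouse 39 and 0.55 without WT mouse 40. At ZT12 it turned to -0.07 without 4 KO libraries that lay far from their groups over all genes, a set that holds the 2 KO mice with more Casp6 at that time. Averaged over the 6 times, the opposite signs left -0.16 ± 0.07, with an adjusted p of 0.123 by edgeR's quasi-likelihood test.

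Cage letters place the group-housed mice of ZT4 and ZT8, of ZT12 and ZT16, and of ZT20 and ZT0 in 3 separate cage sets. Part of the course over time therefore cannot be told apart from the cage set. The 10 individually housed mice have no cage letter and were counted in a set by their time. Within sets, Casp6 in WT changed by -0.02 (log2) from ZT4 to ZT8, by -0.55 from ZT12 to ZT16 and by 0.76 from ZT20 to ZT0. The same steps in KO were 0.06, 0.11 and -0.08. The fall between ZT8 and ZT12, the steepest of the WT course, lies between 2 sets. Both genotypes were represented by 8 mice in each set, individually housed mice included. In these sets KO minus WT was -0.93 ± 0.11 (SE) for ZT4 and ZT8, 0.54 ± 0.11 for ZT12 and ZT16, and -0.09 ± 0.11 for ZT20 and ZT0.

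The promoter of Casp6 is shown because E-boxes are the motif through which the deleted gene acts, and that of Bid because its rhythm differed between genotypes by test. The sequences are the 250 bases before the transcription start from RefSeq (build GRCm38.p6, not the mm9 of the counts), read 5′ to 3′ on the gene's strand. Casp6 lies on the plus strand at chr3:129901165-129901414 and Bid on the minus strand at chr6:120916825-120917074. Capitals would mark a motif found, and neither has any.
Casp6: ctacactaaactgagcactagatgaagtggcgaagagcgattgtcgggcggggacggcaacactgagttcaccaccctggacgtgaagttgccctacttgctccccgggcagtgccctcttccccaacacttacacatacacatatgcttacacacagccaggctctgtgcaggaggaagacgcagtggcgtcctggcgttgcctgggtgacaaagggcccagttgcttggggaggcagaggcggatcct
Bid: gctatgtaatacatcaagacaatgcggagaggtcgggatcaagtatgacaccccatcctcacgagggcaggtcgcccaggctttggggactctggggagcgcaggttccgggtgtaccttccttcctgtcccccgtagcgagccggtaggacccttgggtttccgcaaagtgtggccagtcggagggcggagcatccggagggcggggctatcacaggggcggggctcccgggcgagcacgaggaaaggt
Windows of 250 bases before to 50 after the start were searched on both strands for the E-box CACGTG, the variant CACGTT, the D-box letters TTATGTAA and TTACGTAA, and the short site AGGTCA of Rev-erb and ROR receptors. RefSeq windows matched all 8 members. Of all 32817 windows, 7.15% held the E-box, 4.69% the variant, 1.05% a D-box and 16.3% the short site. The single windows of Casp6, Casp8, Casp9, Mcl1 and Bid and both windows of Bcl2l11 held none of these letters, and 1 of 3 windows of Bcl2l1 held the short site. Bax held the E-box at 2 places, 9 bases before and 35 bases after the start, shown here with their neighbouring bases and the motif in capitals.
Bax, before the start: atgatgatCACGTGactagtcc
Bax, after the start: ggggcaccCACGTGagggccgc
These matches describe the letters of short windows, and binding was not measured.

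The caspases that act before the executioners had much smaller changes over the day. Casp8 (ENSMUSG00000026029, chromosome 1, 58852218 to 58904347), the initiator below death receptors, ran in WT from 33.7 ± 3.20 CPM (SD, n = 4) at ZT0 to 43.5 ± 2.36 at ZT8. Its WT wave had an amplitude of 0.12 ± 0.04 (log2, SE) with a peak at ZT10.5 and an adjusted p of 0.0400. WT mice at ZT0 stood at 33.5, 29.4, 37.04 and 34.7 CPM, and at ZT8 at 43.5, 40.8, 46.6 and 43.1, so the lowest and highest groups did not overlap. The call was lost with total counts in place of TMM (adjusted p 0.178), without the filter on low counts (0.0686) and with body weight (0.0506), and on leaving out any 1 of 10 WT mice, with a highest adjusted p of 0.104 without WT mouse 45. In KO the amplitude was 0.09 ± 0.04 and the adjusted p 0.327, and the rhythm difference between genotypes had an adjusted p of 0.674.

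Casp9 (ENSMUSG00000028914, chromosome 4, 141349527 to 141371891), the initiator of the apoptosome, had its lowest mean at ZT12 in both genotypes. WT mice at ZT12 stood at 21.4, 21.8, 24.5 and 25.9 CPM, and the WT means of the other times ran from 28.5 ± 3.13 (SD, n = 4) to 33.1 ± 2.91. KO mice at ZT12 stood at 25.3, 26.6, 21.1 and 26.8 CPM, with a next lowest mean of 26.9 ± 2.69 at ZT8 and a highest of 31.8 ± 3.44 at ZT20. In each genotype mice of ZT12 overlapped those of the next lowest time, ZT0 in WT and ZT8 in KO. The 24 h wave in WT, with an amplitude of 0.09 ± 0.05 (log2, SE), had an adjusted p of 0.285, and scaling by total counts alone gave 0.15 and a call (adjusted p 0.0327). A test of any difference among the 6 times gave an adjusted p of 0.000657 in WT and 0.0920 in KO, and 0.177 for genotype by time. The neighbouring gene Cela2a overlaps Casp9 by 1015 bases, and the library kit does not record strand. Cela2a had a mean of 14.2 counts per library, with a WT amplitude of 1.02 (adjusted p 1.14e-05), a rhythm difference at 0.00014 and KO minus WT of 1.91 at ZT16 (0.00404). Casp9 itself had 654 to 1186 counts per library, and the part of Cela2a in its values was not tested. KO minus WT at ZT8 was -0.27 ± 0.10 for Casp9 with an adjusted p of 0.0699, and it was called without KO mouse 10 or WT mouse 11 of ZT8 or KO mouse 21 of ZT12.

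**Figure D2:**
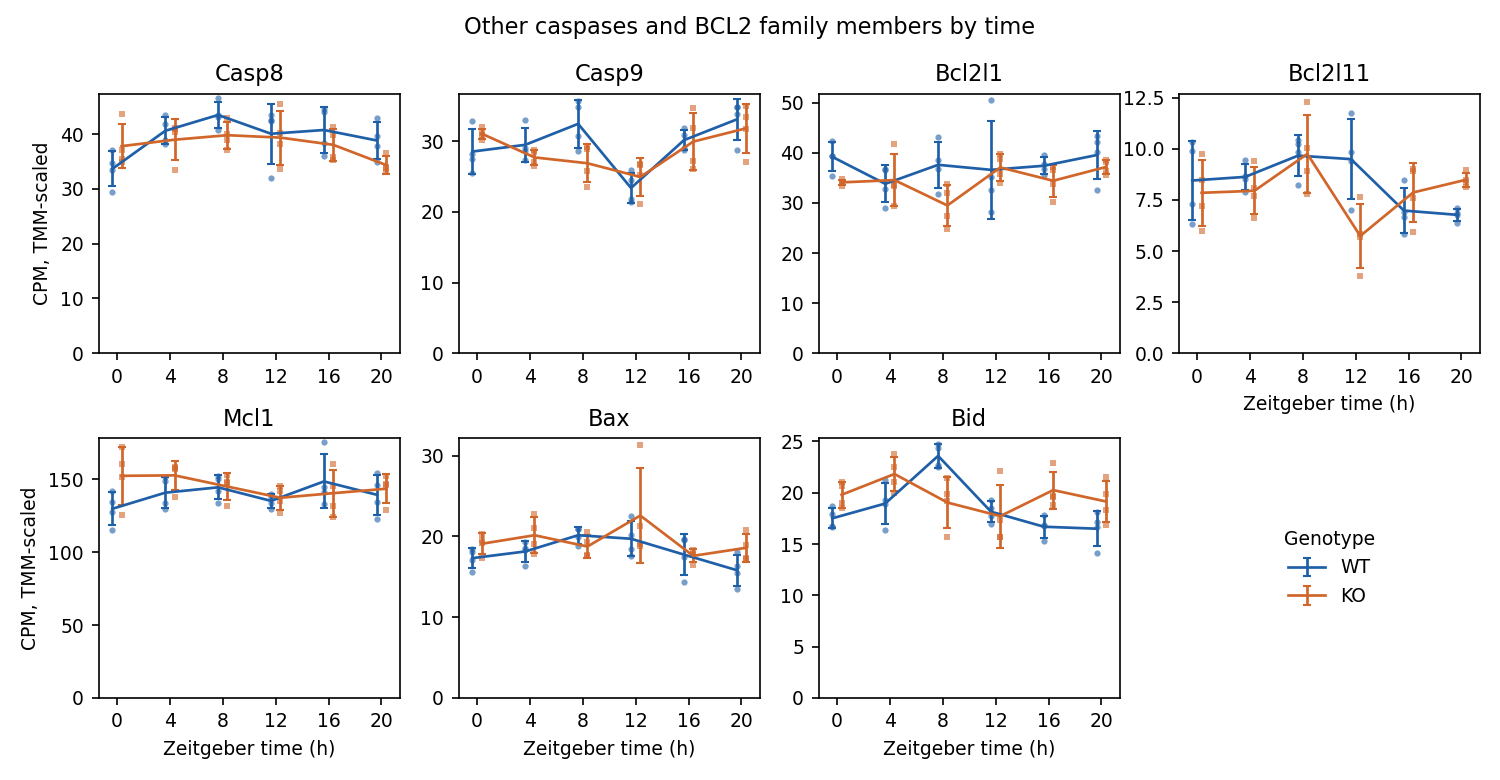
Levels (CPM, TMM-scaled, linear axes from 0) of the 7 other members against zeitgeber time in hours, points for single mice, lines through means of 4 mice, and bars of 1 SD, in WT (circles) and KO (squares). Casp9 has its lowest mean at ZT12 in both genotypes, Bid peaks at ZT8 in WT at 23.6 CPM, and Bcl2l11 falls to 5.74 CPM at ZT12 in KO.

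The guardians of mitochondria had the smallest WT amplitudes of the 8 members. Mcl1 (ENSMUSG00000038612, chromosome 3, 95462643 to 95467099), which encodes a short-lived BCL2 relative, had group means of 130 ± 11.4 to 149 ± 18.5 CPM (SD, n = 4) in WT and 137 ± 8.33 to 153 ± 9.81 in KO. Its amplitude was 0.04 ± 0.04 (log2, SE) in WT with an adjusted p of 0.603 and 0.08 ± 0.04 in KO with 0.327. Bcl2l1 (ENSMUSG00000007659, chromosome 2, 152593052 to 152657464), the gene of Bcl-xL, had amplitudes of 0.07 ± 0.05 and 0.09 ± 0.05 with adjusted p values of 0.520 and 0.426. Bcl2l1 was lower in KO at 4 of 6 times, by 0.35 ± 0.12 (log2, SE) at ZT8 with an adjusted p of 0.0644 (called at 0.0453 by DESeq2, and without KO mouse 10 or WT mouse 13 of ZT8 or WT mouse 19 or 22 of ZT12), and by 0.12 ± 0.05 on average with 0.130. At ZT0 its WT mice (39.4, 35.5, 39.5 and 42.4 CPM) all lay above the KO mice (33.5, 34.8, 34.1 and 34.1), with an adjusted p of 0.397.

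Bax (ENSMUSG00000003873, chromosome 7, 52717065 to 52722268), the pore former, had a shallow WT wave of 0.16 ± 0.05 (log2, SE), peaking at ZT9.09 with an adjusted p of 0.0228. WT mice stood at 20.97, 20.9, 19.9 and 18.8 CPM at ZT8 and at 15.4, 18.1, 16.3 and 13.5 at ZT20. These groups did not overlap, but they were picked as the extremes of 6 times, and no share over all genes was computed. The call was lost with total counts in place of TMM (adjusted p 0.0652) and without WT mouse 40 of ZT20 (0.0566). In KO the amplitude was 0.08 ± 0.05 with an adjusted p of 0.493, and the rhythm difference had 0.700. The highest KO group, ZT12 at 22.6 ± 5.91 CPM (SD, n = 4), rested on mouse 21 at 31.3 CPM beside 21.2, 18.8 and 19.002.

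Bid (ENSMUSG00000004446, chromosome 6, 120841948 to 120866871), whose protein caspase-8 cuts to link death receptors to mitochondria, was the only one of the 7 genes tested whose 24 h rhythm differed between genotypes by the wave test. WT mice stood at 24.3, 22.5, 22.7 and 24.8 CPM at ZT8, above every WT mouse of the other times, whose group means ran from 16.5 ± 1.72 (SD, n = 4) at ZT20 to 18.9 ± 1.98 at ZT4. KO mice at ZT8 stood at 21.5, 15.7, 19.9 and 19.2 CPM, all below WT. At ZT16 the order was the opposite, with WT at 16.8, 17.9, 15.3 and 16.8 CPM and KO at 19.7, 22.9, 19.6 and 18.8, again with no overlap.

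The WT wave of Bid had an amplitude of 0.22 ± 0.04 (log2, SE), or 1.35-fold, peaking at ZT7.33 with an adjusted p of 0.000320. The KO amplitude was 0.08 ± 0.04 with an adjusted p of 0.454. The difference of the waves had an adjusted p of 0.0175, stayed called on leaving out each of the 48 mice in turn, and was lost (0.0834) with total counts in place of TMM. KO minus WT was -0.31 ± 0.10 at ZT8 with an adjusted p of 0.0438, 0.28 ± 0.10 at ZT16 with 0.0859, and 0.09 ± 0.04 on average with 0.173. The ZT16 value was called with total counts (0.0457), without the 4 libraries that stood apart (0.0413) and without KO mouse 21 of ZT12 alone (0.0437). The ZT8 call was lost with total counts (0.101), without the filter (0.0677) and with body weight (0.0597). It was also lost without any 1 of 7 of the 8 mice of that time, KO mouse 9 being the exception, with adjusted p values between 0.0196 and 0.168 over all 48 omissions. Bid overlaps Bcl2l13 by 913 bases, so reads of the 2 genes can be mixed there. Bcl2l13, at a mean of 2051.7 counts, had a WT amplitude of 0.05 peaking at ZT0.31 and a rhythm difference with an adjusted p of 0.824.

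Bcl2l11 (ENSMUSG00000027381, chromosome 2, 127951774 to 127988283), the gene of the BH3-only protein BIM, had the largest genotype difference at a single time among the 7 genes. At ZT12 WT mice stood at 9.86, 9.38, 6.99 and 11.7 CPM and KO mice at 5.68, 3.801, 7.64 and 5.83. One pair of mice crossed, KO mouse 21 lying above WT mouse 22, and the other KO mice lay below every WT mouse. KO minus WT was -0.73 ± 0.17 (log2, SE) with an adjusted p of 0.00477, and it stayed called on leaving out each of the 48 mice, with values between -0.90 and -0.57. At ZT20 the order turned: WT mice at 6.39, 7.08, 6.85 and 6.76 CPM lay below KO mice at 8.95, 8.39, 8.12 and 8.49, a difference of 0.33 ± 0.17 with an adjusted p of 0.430.

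The WT wave of Bcl2l11 had an amplitude of 0.25 ± 0.08 (log2, SE), peaking at ZT7.40 with an adjusted p of 0.0306. It rose from 6.77 ± 0.286 CPM (SD, n = 4) at ZT20 to 9.67 ± 1.002 at ZT8. The call was lost without WT mouse 11 or 16 of ZT8, 29 of ZT16 or 33 of ZT20, where the adjusted p reached 0.0528. The KO amplitude was 0.12 ± 0.08 with an adjusted p of 0.572, and the difference of the waves had 0.222. A test of any genotype by time difference gave 0.0214 for Bcl2l11 and 0.00997 for Bid.

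Set against all 14836 genes tested, the 7 members gave 4 called WT rhythms (Casp8, Bcl2l11, Bax and Bid), beside 48.1% of all genes. In KO, 0 of 7 were called by edgeR, beside 0.984% of all genes, and 0 by DESeq2, beside 3.07%. By edgeR, 1 (Casp9) had an unadjusted p under 0.05, for which no share over all genes was computed. The rhythm difference was called in 1 of 7, beside 22.8%. Of 42 single-time differences 2 were called, 1 at ZT8 beside 7.87% of all genes and 1 at ZT12 beside 11.7%; at ZT0, ZT4, ZT16 and ZT20, where no member was called, all genes gave 1.68%, 3.79%, 5.37% and 1.05%. Mice of the 2 genotypes did not overlap for Bcl2l1 at ZT0, Bid at ZT8, Bid at ZT16 and Bcl2l11 at ZT20, beside 6.35%, 15.4%, 14.5% and 9.85% of all genes, and for none of the 7 at ZT4 and ZT12, beside 13.3% and 10.5%.

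Averaged over the 6 times, 0 of the 8 members were called by edgeR, beside 8.86% of all genes, and 0 by DESeq2, beside 10.2%. By edgeR, 4 (Casp6, Bcl2l1, Bax and Bid) had an unadjusted p under 0.05, for which no share over all genes was computed. KO minus WT was -0.05 ± 0.04 (log2, SE) for Casp8, -0.04 ± 0.04 for Casp9, -0.07 ± 0.07 for Bcl2l11, 0.06 ± 0.04 for Mcl1 and 0.10 ± 0.05 for Bax, with adjusted p values of 0.430, 0.638, 0.573, 0.376 and 0.188. The spread across cage sets was widest for Casp6, as given above, and for Bcl2l11, which stood at -0.05 ± 0.12, -0.28 ± 0.12 and 0.11 ± 0.12 for ZT4 and ZT8, ZT12 and ZT16, and ZT20 and ZT0. Within a set, the smallest adjusted p of the other 7 genes was 0.0641, that of Casp9 for ZT4 and ZT8. Of the cages, 11 held 1 WT and 1 KO mouse killed at the same time, and a fit with each cage as a block, added after the data were seen, called 0 of the 7 genes, beside 1.32% of all genes (1, Casp8, at an unadjusted p under 0.05). Between these cage mates KO minus WT was -0.10 ± 0.05 (log2, SE) for Casp8 and -0.18 ± 0.09 for Bcl2l1, each lower in KO in 9 of 11 cages, with edgeR adjusted p values of 0.292 and 0.324. For Bcl2l11 the sign turned, to 0.06 ± 0.14 with 0.865.

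**Figure D3:**
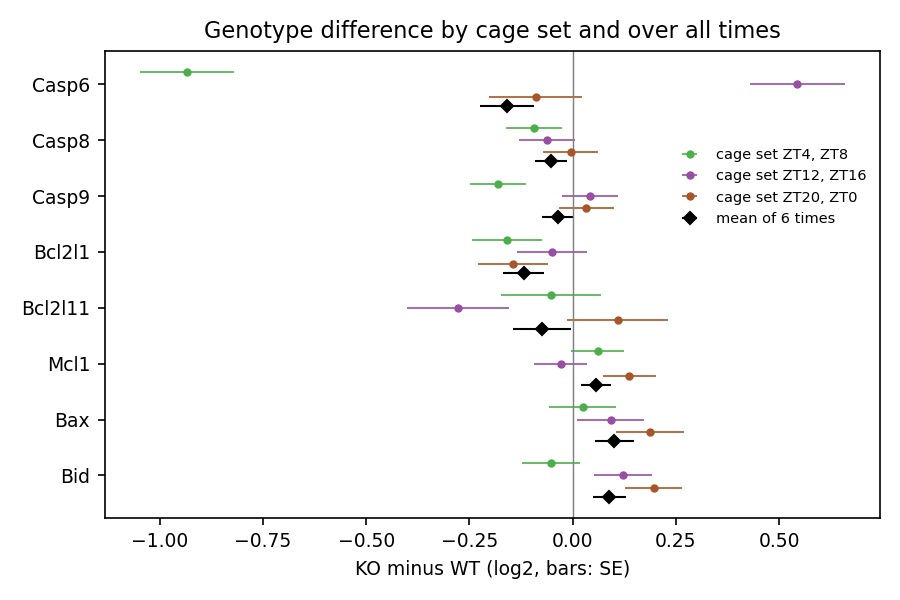
KO minus WT (log2, bars of 1 SE) for the 8 members within each cage set (coloured points, 8 mice per genotype) and averaged over the 6 times (black diamonds, 24 mice per genotype). Casp6 stands at -0.93 in the set of ZT4 and ZT8 and at 0.54 in that of ZT12 and ZT16, and its average is -0.16.

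Casp6 was then placed among the wider apoptosis machinery, a list of 62 genes of which 61 are in the table and 59 passed the filter on low counts. Casp14 and Bcl2a1c had at most 1 read in any library, and Bcl2l10 was not analysed here. Apart from Casp6, 27 of 58 genes (46.6%) had a called WT rhythm, 0 of 58 a called KO rhythm by edgeR (17 at an unadjusted p under 0.05, 1 by DESeq2, Naip5) and 11 of 58 (18.97%) a called rhythm difference. The background shares of 48.1%, 0.984% and 22.8% given above apply to the edgeR calls among these counts. DESeq2 called a KO rhythm in 3.07% of all genes, and no share over all genes was computed for the unadjusted p. The median WT amplitude of the 58 genes was 0.16 (log2) beside 0.18 over all genes, and the median KO amplitude 0.11 beside 0.11. Of the 58 genes 1, Hrk, had a larger WT amplitude than Casp6, at 0.89, but at a mean of 0.116 CPM in WT. The next were the mitotic survivin gene Birc5 at 0.81, with 0.57 in KO, and the BH3-only gene Bmf at 0.70, with 0.35 in KO. Birc5, Bmf and Hrk were named for their rank by amplitude.

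**Figure D4:**
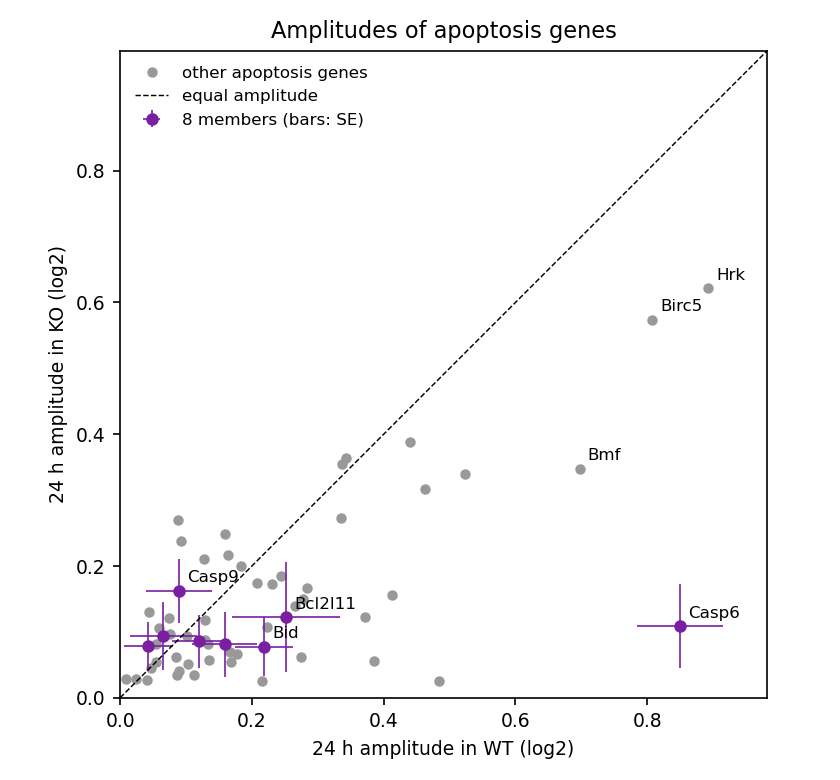
Fitted 24 h amplitude in KO against that in WT (log2, linear axes) for 59 apoptosis genes; purple points are the 8 members with bars of 1 SE, and the dashed line marks equal amplitudes. Casp6 lies at 0.85 in WT and 0.11 in KO, far below the line, and the other 7 members lie at or under 0.25 in WT.

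Called WT rhythms are given by group of the list, to be read beside the 48.1% of all genes. The groups are small, and differences between them were not tested. Among caspases other than Casp6, 2 of 8 had a called WT rhythm, Casp2 and Casp8. The apoptosome gave 1 of 2, the p53 axis 1 of 2, and substrates and nucleases 3 of 6. Among caspase inhibitors and their antagonists 8 of 12 were called. The 8 include Naip1, Naip2, Naip5 and Naip6, which lie together on chromosome 13. Among anti-apoptotic BCL2 relatives 1 of 7 were called, among effectors 2 of 3, among BH3-only and related genes 6 of 10, and among death receptors and adaptors 3 of 8. The smallest adjusted p values belonged to Bnip3, a mitophagy receptor of this family, with an amplitude of 0.48 ± 0.06 (log2, SE) peaking at ZT10.5 (adjusted p 2.89e-08), and to Bok, a BAX relative, with 0.39 ± 0.06 at ZT3.08 (9.38e-06). They were followed by the mitochondrial nuclease gene Endog, with 0.37 ± 0.06 at ZT14.5 (9.39e-06), and by Parp1, a DNA repair gene whose protein caspases cut, with 0.18 ± 0.03 at ZT16.5 (9.82e-05). Bnip3, Endog and Bok also had the smallest adjusted p values for the rhythm difference (8.91e-05, 0.000358 and 0.00113), with KO amplitudes of 0.03, 0.12 and 0.06. Bcl2a1a, whose reads can be shared with near-identical copies, followed with 0.00351 at a mean of 0.557 CPM in WT. Its amplitudes were 0.46 ± 0.12 in WT and 0.32 ± 0.12 in KO, with fitted peaks at ZT2.60 and ZT12.4. The KO wave of Bcl2a1a was not called (adjusted p 0.201). By group, rhythm differences are to be read beside the 22.8% of all genes. They were called in 1 of 8 caspases other than Casp6, 0 of 12 inhibitors and antagonists, and 1 of 2 apoptosome genes. The BCL2 family gave 1 of 7 anti-apoptotic genes, 1 of 3 effectors and 4 of 10 BH3-only and related genes. Death receptors and adaptors gave 2 of 8, the p53 axis 0 of 2, and substrates and nucleases 1 of 6. Of the 27 genes with a called WT rhythm 16 peaked before ZT12 and 11 at or after it, and 25 of 27 had a smaller amplitude in KO, a direction that choosing genes by their WT rhythm favours. Over all 58 genes the amplitude was smaller in KO in 39, for which no share over all genes was computed. The median amplitude over all genes tested was itself smaller in KO, at 0.11 beside 0.18 in WT.

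Averaged over times, 4 of 59 list genes (6.78%) were called, beside 8.86% of all genes. In KO, 2 were higher (background 4.94%) and 2 lower (background 3.92%). The BH3-only gene Bik fell by 0.63 ± 0.14 (log2, SE) from 2.002 ± 0.892 CPM (SD, n = 24) in WT to 1.25 ± 0.422 in KO, with an adjusted p of 0.00299. Cytochrome c (Cycs) fell by 0.13 ± 0.04 from 100.1 ± 16.8 to 90.5 ± 9.88 CPM, with 0.0414. Neither average was an even shift over the day. By time, KO minus WT of Cycs ran from 0.16 ± 0.11 at ZT0 to -0.53 ± 0.11 at ZT16, with adjusted p values of 0.443 and 0.00232. Its rhythm difference was called too, at 0.0467. Bik ran from -0.03 ± 0.35 at ZT0 to -1.28 ± 0.35 at ZT8, with 0.981 and 0.0153. The BH3-only genes Hrk and Pmaip1 rose by 1.096 ± 0.29 and 0.37 ± 0.12, with 0.0113 and 0.0384, at levels of 0.249 ± 0.182 and 2.76 ± 0.735 CPM in KO. With body weight as a covariate the adjusted p was 0.174 for Hrk and 0.134 for Cycs, and without the filter 0.0685 for Cycs and 0.0519 for Pmaip1. Cycs also lost the call with cage as a random block in limma (0.0508) and Pmaip1 with total counts (0.0562). On omission of each mouse in turn, Cycs was called in 29 and Pmaip1 in 28 of 48 fits, and Bik and Hrk in all 48. DESeq2 gave no adjusted p for Hrk and called Bik, Cycs and Pmaip1, at adjusted p values of 0.000359, 0.0266 and 0.0214. Between the 11 pairs of cage mates Hrk and Pmaip1 were higher in KO in 11 of 11, by 1.43 ± 0.36 and 0.63 ± 0.16, while all 4 lost the call, with edgeR adjusted p values of 0.0689 for Hrk, 0.0801 for Pmaip1, 0.319 for Bik and 0.380 for Cycs. The cage mates are part of the 48 mice in which these genes were called, so the 11 of 11 is no separate support. For that count no share over all genes was computed. Naip1, a gene of the NLR family apoptosis inhibitory proteins, was called as higher in KO without the 4 libraries that stood apart (0.0362) and without KO mouse 20 of ZT12 alone (0.0408). The median of KO minus WT over the 58 genes without Casp6 was 0.03, beside 0.00 over all genes.

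Genes whose course over the 12 groups was most like that of Casp6 were sought among 9361 genes with a mean of at least 5 CPM and a symbol that is not a predicted gene, by Pearson's r of group means of log2 CPM. The nearest were Wbscr27 (r = 0.962), Ift46 (0.959), Vps41 (0.957), Zkscan17 (0.948) and Snx21 (0.948). Their WT amplitudes were 0.59, 0.43, 0.25, 0.50 and 0.39 (log2), all smaller than that of Casp6, with peaks between ZT4.17 and ZT5.27, and their KO amplitudes lay between 0.03 and 0.09. These r values are descriptions over 12 means that share libraries, and the genes were picked as the highest of all. Among clock genes, the Rev-erb alpha gene Nr1d1, which peaked at ZT5.57 in WT, had r = 0.915 with Casp6. For Dbp (peak at ZT8.36), Arntl (ZT21.01) and Per2 (ZT13.6) r was 0.433, -0.432 and -0.649.

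**Figure D5:**
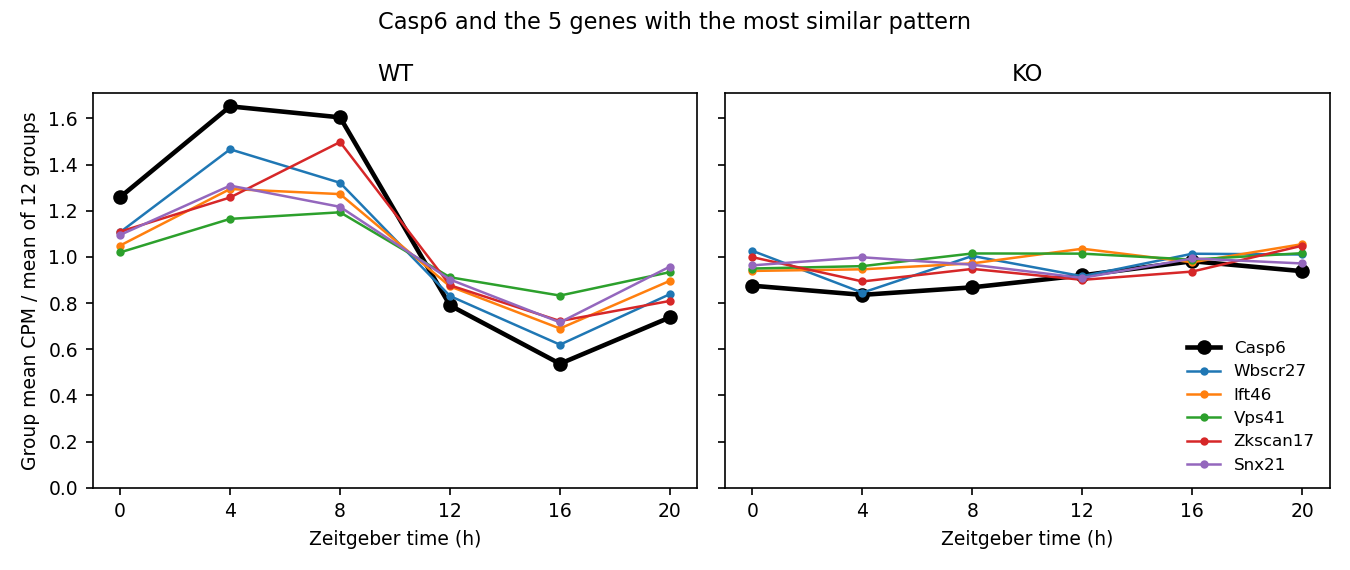
Group means of CPM divided by each gene's mean over the 12 groups, against zeitgeber time in hours, for Casp6 (thick black line) and the 5 genes with the most similar course, in WT (left) and KO (right). All 6 are high at ZT4 and ZT8 and lowest at ZT16 in WT, and Casp6 has the widest swing.

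Mice of 1 group differed in Dbp and Arntl, so each member's deviation from its group mean was set against those of both clock genes, over 24 mice per genotype. Mice were permuted within groups, and deviations from group means hold no difference between the means of times or cage sets. A mouse out of step with its group can still carry part of the course over time into its deviations, which was not tested. In most KO mice the deviations of Dbp and Arntl had opposite signs, as in mouse 46 of ZT0 (log2 2.26 and -1.26). A member's relations with the 2 clock genes are therefore not independent. None of the 32 relations was called after adjustment, and the smallest adjusted p was 0.0878. In WT, Casp6 ran against Arntl with r = -0.436 and rho = -0.437, and r was -0.330 without the 2 mice farthest from the median of the clock gene. Casp6 was chosen for its WT rhythm, so these WT values are a description and carry no p value here. In KO, Casp6 had r = 0.184 with Dbp (permutation p 0.397, rho 0.218 with 0.323) and -0.229 with Arntl (permutation p 0.189, rho -0.276 with 0.149).

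Bcl2l1, Bcl2l11 and Bid had the larger coefficients in KO mice. All but that of Bcl2l11 with Arntl had an adjusted p of 0.0878 for r and 0.106 for rho. With Dbp, r was -0.567 for Bcl2l1 (permutation p 0.01001, rho -0.606 with 0.00566), 0.552 for Bcl2l11 (permutation p 0.0114, rho 0.544 with 0.0165) and 0.502 for Bid (permutation p 0.0165, rho 0.515 with 0.01996). Without the 2 farthest mice these were -0.549, 0.563 and 0.444. With Arntl, r was 0.585 for Bcl2l1 (permutation p 0.0136, rho 0.515 with 0.0194) and -0.481 for Bid (permutation p 0.0143, rho -0.535 with 0.0122), and 0.554 and -0.503 without 2 mice. Bcl2l11 with Arntl had r = -0.438 (permutation p 0.0484, adjusted 0.221, rho -0.443 with 0.0597, adjusted 0.239), which was -0.305 without 2 mice. Both relations of Bid were called without KO mouse 9 of ZT8, at r = 0.655 with Dbp and -0.622 with Arntl (permutation p 0.00117 and 0.0012, adjusted 0.0192 for both). In WT the same 3 genes had r between -0.160 and 0.202 with either clock gene.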

How the data were processed

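Poly-A RNA of 48 livers was made into unstranded libraries, amplified by PCR and run as pairs in a lane, per the labels. Per the submitters' processing notes, CASAVA (version not given) and STAR 2.4.0f1 were used with build mm9; the gene models and the handling of reads that match several genes are not given in the sources used here. The deposited table holds the authors' whole-number counts for 23732 genes. Library totals lie within a narrow range, and how that came about is not given in the sources used here. PCR copies cannot be told from separate molecules.

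The tests were edgeR's quasi-likelihood F tests (version 4.0.16, R 4.3.3) on counts scaled by TMM factors of 0.898 to 1.14. filterByExpr at a minimum count of 10 kept 14836 genes. One model had a mean per group (36 residual degrees of freedom) and another a 24 h cosine and sine per genotype (42). Benjamini-Hochberg adjustment covered every gene tested, and a call is an adjusted p under 0.05. Log2 CPM used a prior count of 2. Correlations used 100000 two-sided permutations within groups. Scripts were tested on simulated counts. Alternatives were DESeq2 1.42.0, total counts, no filter, body weight, cage as a random block in limma 3.58.1, any difference among times, omission of single mice and of 4 libraries, and, added after the data were seen, cage mates as a fixed block.

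The members, the apoptosis list and the 4 omitted libraries (KO mice 20 and 21 of ZT12, 43 and 44 of ZT0) were chosen with earlier results of these data known. Named genes are the members, up to 4 further list genes per test and direction with the smallest p among those called, Arntl and Dbp, and the 5 genes most like Casp6; Nr1d1, Per2, Birc5, Bmf and the overlapping neighbours were named after their values were seen. Marker lists were those of the liver's cell types; Alb was not used here.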

Additional observations from a re-analysis of the deposited data

Results flagged for a closer look

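In groups of 4 mice, the lowest or highest mouse was compared with the rest of its group. Of 96 groups looked at, 5 had 1 mouse set apart from the other 3, and chance sets apart about 1 in 20 groups. Casp6 stood at 14.6 CPM in KO mouse 7 of ZT4, beside 17.1 to 17.5 in the others, and at 24.1 in KO mouse 39 of ZT20, beside 16.03 to 17.4. Casp8 stood at 31.9 CPM in WT mouse 23 of ZT12, beside 42.4 to 43.5, and at 33.5 in KO mouse 1 of ZT4, beside 40.4 to 41.04. Mcl1 stood at 138 CPM in KO mouse 5 of ZT4, beside 157 to 158. The 24 h rhythm of Bid differed between WT and KO by the test of the difference itself, with an adjusted p of 0.0175 (edgeR).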

How the results depend on the processing

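No mouse number occurs in more than 1 group, so numbers pair no mice. Cage mates do: 11 cages held 1 WT and 1 KO mouse of the same time. The paired fit over these 22 mice (edgeR, each cage a block, 10 residual degrees of freedom, chosen after seeing the data) called 0 of 7 members and moved the list genes higher in KO from 2 to 0 and those lower from 2 to 0. Of all genes it called 196. Bcl2l11, KO minus WT averaged over times, turned from -0.07 to 0.062. These pairs weigh the times unequally. Over all mice, cage entered as a random block in limma (correlation 0.0806 in the model of group means, 0.158 in that of waves).

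For the members, the count of called single-time differences moved from 2 to 1 without the filter and with body weight, and that of rhythm differences from 1 to 0 with total counts and to 2 for any difference among the 6 times. On omission of 1 mouse, single-time calls ran from 1 to 4, WT rhythms from 2 to 4, KO rhythms from 0 to 0, rhythm differences from 1 to 1, called averages from 0 to 0 and called correlations with clock genes from 0 to 2. For the apoptosis list, genes higher in KO moved from 2 to 1 with DESeq2 (which gave Hrk no adjusted p), total counts, no filter or body weight, and genes lower in KO from 2 to 1 with no filter, body weight or the random cage block. Its KO rhythms moved from 0 to 1 with DESeq2, total counts, body weight or without the 4 libraries. Omitting 1 mouse gave 1 to 3 higher, 1 to 2 lower, 25 to 30 WT rhythms, 0 to 1 KO rhythms and 8 to 13 rhythm differences.

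Signs turned for 3 further values. Casp8, amplitude KO minus WT, went from -0.034 to 0.032 with total counts. Bcl2l1, amplitude KO minus WT, went from 0.028 to -0.031 with total counts, and on omission of 1 mouse ran from -0.0019 (WT mouse 22 of ZT12) to 0.066, with -0.0012 without KO mouse 15 of ZT8. Casp6, KO minus WT at ZT12, went from 0.22 to -0.065 without the 4 libraries. The cause was not tested. Casp9, amplitude in WT, became called with total counts (adjusted p 0.0327). Other calls of members and list genes that were lost or gained stand beside their values in the results. For the members, 4 single-time calls came without KO mouse 21 of ZT12, and 2 WT rhythms without WT mouse 11 or 16 of ZT8 or 40 of ZT20. Both called correlations came without KO mouse 9 of ZT8. All genes called for KO minus WT on average fell from 1314 to 1027 without the filter and to 711 with body weight, and KO rhythms went from 146 to 455 with DESeq2 and to 28 without the filter. Hrk, at 0.116 CPM in WT, is close to the limit of this depth.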
